A study of Mus musculus with 42 samples.

Results

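Leukocytes leave the blood in steps. Selectins on activated endothelium catch the mucin PSGL-1, encoded by Selplg, on rolling cells, chemokines then activate leukocyte integrins, and these bind immunoglobulin-family ligands on the vessel wall. The integrin LFA-1 pairs the subunits encoded by Itgal and Itgb2 and binds ICAM-1, encoded by Icam1, while the subunit encoded by Itga4 pairs with the products of Itgb1 or Itgb7 and binds VCAM-1, encoded by Vcam1, or the mucosal addressin encoded by Madcam1. The 9 genes described here are the leukocyte-side genes Itgal, Itgb2, Itga4, Itgb7 and Selplg, and the endothelial-side genes Icam1, Vcam1, Sele (E-selectin) and Selp (P-selectin, which platelets also store). They were chosen by symbol among the 26811 genes of the count matrix, and all 9 passed the filter on low counts. The sides are named for the step in which each gene is best known: Icam1 is also made by activated leukocytes and tumor cells, and Vcam1 by stroma.

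The samples were 42 tumors of MC38, a mouse colon carcinoma line, 1 per profile, from female CC075/UncJ x C57BL/6J F1 mice aged 8 to 12 weeks and injected with the line under the skin. Mice received 100 µg of aGMCSF, 200 µg of aIL2RB or matching isotype antibodies every 3 days until the tumor measured 75 to 110 mm3, then 1 dose of 200 µg of aPD1 or isotype, and tumors were taken after 48 h. Isotype antibodies alone were given to 5 mice and aPD1 with isotypes of the blocking antibodies to 6. Of the mice given aPD1 and a blocking antibody, 9 received aGM-CSF, 11 received aIL2RB and another 11 received both, which is called the double blockade here. All groups shared the tumor line, the host cross and the sampling time, and whole tumors were profiled, so that a gene with fewer cells that express it and a gene with less RNA per cell cannot be told apart.

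Totals ranged from 7155486 to 24101674 counts per tumor, and the tumor with the lowest was double blockade tumor 4. Along their replicate numbers the tumors fell into 2 sets, of 22 and 20 tumors, with members of every group in each. The first set held the tumors with the lowest replicate numbers: 2 isotype, 3 aPD1, 5 aGM-CSF, 6 aIL2RB and 6 double blockade tumors. On the first principal component the sets overlapped, with first-set aPD1 tumor 2 at 13.8 and second-set aPD1 tumor 6 at -8.4. What separates the sets is not given in the labels. Levels are in CPM, counts scaled to a common library size, after TMM normalization, and tests are edgeR quasi-likelihood tests over all 16932 genes that passed the filter, with Benjamini-Hochberg adjustment and a threshold of 0.05. The leukocyte marker Ptprc rose from 159 ± 12.7 CPM in isotype tumors to 312 ± 82.7 CPM with aPD1 (mean ± SD), and of 12 endothelial marker genes, 1 rose and none fell.

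RefSeq promoter sequences (GRCm38.p6, 250 bases before to 50 after the start of the gene) exist in the reference table for 5 of the 9 members. The promoters of the 3 of these that were called against aPD1 under each blockade are printed, 5′ to 3′ on the strand of the gene. In capitals is a match to TTCNNNGAA, the letters of an interferon-gamma activated site, or to GAGGAAG, those of an ETS-type site, on either strand. Itga4 holds neither.
Icam1, chr9:21015690-21015989, plus strand: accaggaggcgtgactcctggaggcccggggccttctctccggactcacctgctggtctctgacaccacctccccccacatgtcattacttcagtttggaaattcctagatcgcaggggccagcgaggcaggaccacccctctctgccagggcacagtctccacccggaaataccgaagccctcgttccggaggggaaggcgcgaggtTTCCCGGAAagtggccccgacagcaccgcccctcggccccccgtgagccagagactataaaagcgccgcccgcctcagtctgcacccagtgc
Itga4, chr2:79255176-79255475, plus strand: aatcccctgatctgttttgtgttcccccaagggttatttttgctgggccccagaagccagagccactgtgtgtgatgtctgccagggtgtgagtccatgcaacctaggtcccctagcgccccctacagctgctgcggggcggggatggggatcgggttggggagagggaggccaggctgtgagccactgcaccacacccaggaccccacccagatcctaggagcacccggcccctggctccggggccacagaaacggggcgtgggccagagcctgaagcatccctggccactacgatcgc
Itgb7, chr15:102231886-102232185, minus strand: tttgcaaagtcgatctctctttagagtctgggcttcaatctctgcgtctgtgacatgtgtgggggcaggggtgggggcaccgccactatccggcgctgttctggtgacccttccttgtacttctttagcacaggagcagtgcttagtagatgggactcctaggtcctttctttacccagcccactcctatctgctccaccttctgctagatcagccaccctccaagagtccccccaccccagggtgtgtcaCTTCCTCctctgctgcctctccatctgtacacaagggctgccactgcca
The interferon-type match of Icam1 begins at base 209 of its promoter and the ETS-type match of Itgb7 at base 252, on the opposite strand. Among all 32851 promoters of the table, 8.3% hold the former letters and 13.6% the latter, and Sele holds the former as well. One spelling of an NF-kB-type site, GGG and TTCC with any 3 bases between them, was also searched on both strands and is in none of the 5 and in 5.56% of all; other spellings were not searched. These are matches of letters, and none says that a factor binds there.

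aPD1 alone raised 5 of the 9 members and lowered none. The 4 leukocyte-side genes Itgal, Itgb2, Itga4 and Selplg rose, and so did Icam1. Of all genes tested, 8.71% were called in this comparison. Itgal, the alpha subunit of LFA-1, stood at 53.1, 71.0, 75.7, 62.3 and 77.7 CPM in the isotype tumors. In the aPD1 tumors its lowest, median and highest levels were 94.0, 118 and 162 CPM. Every aPD1 tumor thus lay above every isotype tumor, and the log2 fold change was 0.83 ± 0.26 (SE, adjusted p = 0.0351).

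Itgb2, the beta subunit that LFA-1 shares with the myeloid integrins, was at 104, 137, 122, 131 and 139 CPM in isotype tumors. With aPD1 it ranged from 143 to 326 CPM with a median of 223 CPM, again without overlap. Its log2 fold change was 0.82 ± 0.26 (SE, adjusted p = 0.0370). Itga4, which forms integrins for VCAM-1 on lymphocytes and monocytes, was at 48.0, 35.5, 61.2, 37.4 and 62.3 CPM in isotype tumors and at 70.8 to 149 CPM, median 98.9 CPM, in aPD1 tumors. The groups did not overlap, and the log2 fold change of 1.04 ± 0.25 was the largest of the 5 called (adjusted p = 0.00674).

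Selplg, a selectin ligand of leukocytes, was at 25.3, 31.5, 26.6, 32.03 and 30.7 CPM in isotype tumors and ranged from 32.1 to 71.0 CPM, median 52.1 CPM, in aPD1 tumors. Its lowest aPD1 tumor was barely above its highest isotype tumor, and the log2 fold change was 0.86 ± 0.22 (adjusted p = 0.0113). Icam1, the LFA-1 ligand, was at 18.8, 21.5, 18.4, 15.4 and 19.3 CPM in isotype tumors, and at 26.1 to 41.2 CPM, median 38.97 CPM, with aPD1. The log2 fold change was 0.94 ± 0.22 (adjusted p = 0.00658). In CPM, the 2 groups did not overlap for these 5 genes, while 4.51% of all tested genes were apart in either direction.

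The other 4 members did not pass the test. Itgb7 was at 8.07 to 15.2 CPM in isotype tumors and at 12.5 to 38.6 CPM in aPD1 tumors, which overlapped, with a log2 fold change of 0.93 ± 0.51 (adjusted p = 0.262), and it was called when only the 2 groups compared were fitted (adjusted p = 0.0382). Vcam1 was abundant and flat, with 243 ± 29.8 CPM in isotype and 266 ± 26.8 CPM in aPD1 tumors and a log2 fold change of 0.13 ± 0.086 (adjusted p = 0.362). Selp was at 0.0944, 0.365, 0.504, 0.591 and 0.467 CPM in isotype tumors and at 0.24 to 3.01 CPM, median 1.41 CPM, in aPD1 tumors, with a log2 fold change of 1.82 ± 0.65 (adjusted p = 0.0701). Selp was called by DESeq2, which called 6 members in this comparison, without aPD1 tumor 2, and without aIL2RB tumor 9 and double blockade tumor 1. Sele had 0 to 17 counts per tumor over the series, a median of 2, and 0 in 9 tumors, so no direction is read from it. Leaving out aPD1 tumor 1, 4 or 6, or isotype tumor 1, 2, 3 or 4, left 3 of the 5 called (Itga4, Selplg and Icam1), and Itgb2 was also lost without aPD1 tumor 5. Within the first set no member was called, and within the second set all 5 were. The shares of all genes called in these 2 fits are not given here. For these 5 the difference between the sets, second minus first, ran from -0.036 ± 0.37 for Itga4 to 0.54 ± 0.37 for Icam1 and was not called. The first set was among 23 alternatives. The lowest log2 fold changes over these were 0.73 for Itgal, 0.64 for Itgb2, 0.89 for Itga4, 0.57 for Selplg and 0.65 for Icam1.

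Genes of 5 muscle markers also rose in this comparison, 5 of 5, and their summed level ranged from 0.234 to 24.3 CPM in isotype tumors and from 0.602 to 653 CPM in aPD1 tumors; with that level as a covariate Itga4, Selplg and Icam1 were called. Itgal and Itgb2 were not, although their log2 fold changes, 0.87 and 0.84, were as large as without it.

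**Figure D1:**
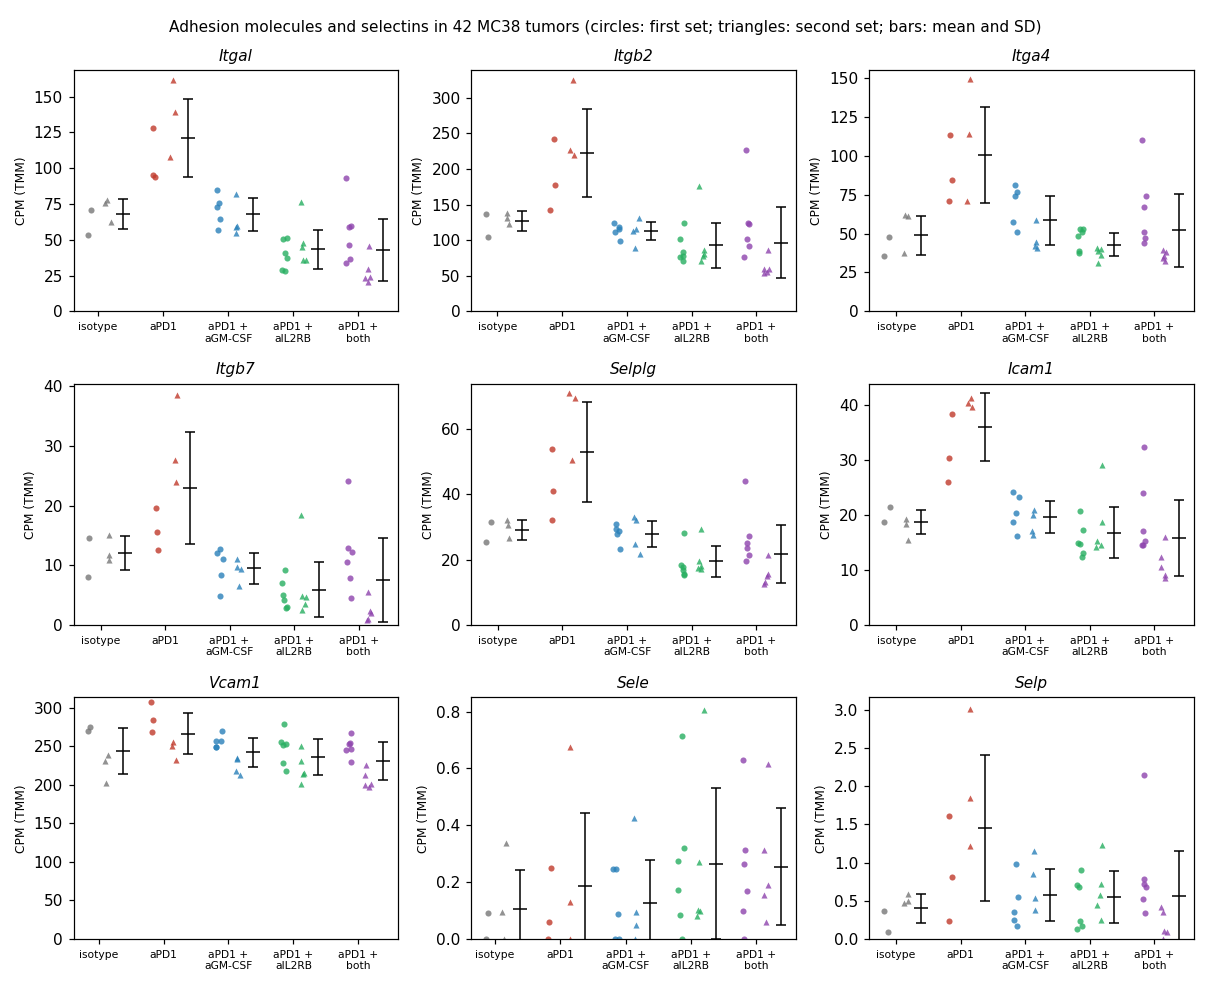
Levels in CPM (TMM-normalized, y axis from 0) of the 9 members in the 5 groups (x axis), 1 point per tumor, with circles for the first set and triangles for the second, and bars for the mean and SD. The aPD1 tumors sit above all isotype tumors for Itgal, Itgb2, Itga4, Selplg and Icam1, while all Vcam1 values lie between 198 and 308 CPM.

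Adding aGM-CSF to aPD1 lowered 6 members: Itgal, Itgb2, Itga4, Itgb7, Selplg and Icam1. Of all genes, 13.5% were called. The levels came to lie near those of isotype tumors: Itgal had a lowest, median and highest value of 54.8, 64.8 and 84.6 CPM, and Itgb2 of 89.4, 115 and 131 CPM. Icam1 ranged from 16.2 to 24.3 CPM, median 20.1 CPM. In these 3 genes every tumor was below every aPD1 tumor; 2.86% of all genes did not overlap, in either direction. The log2 fold changes against aPD1 were -0.84 ± 0.22 for Itgal (adjusted p = 0.00799), -0.98 ± 0.22 for Itgb2 (adjusted p = 0.00210) and -0.87 ± 0.19 for Icam1 (adjusted p = 0.00168).

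Selplg and Itga4 fell with overlap. Selplg ranged from 21.8 to 33.2 CPM, median 28.8 CPM, with a log2 fold change of -0.92 ± 0.18 (adjusted p = 8.35e-04). Itga4 ranged from 40.9 to 81.0 CPM, median 57.6 CPM, with -0.78 ± 0.21 (adjusted p = 0.00857), and without aPD1 tumor 4 it was not called. Itgb7, the beta subunit of the gut-homing integrin, ranged from 4.81 to 12.7 CPM, median 9.72 CPM. Its log2 fold change was -1.27 ± 0.43 (adjusted p = 0.0439), a call lost in 16 of 27 alternatives: with DESeq2, the replicate block, scaling to library size only, a filter on a total of at least 5 counts, in the first set, and when any of aPD1 tumors 1, 4, 5 or 6 or any of 7 of the 9 aGM-CSF tumors was left out. Vcam1 at 242 ± 18.9 CPM, with a log2 fold change of -0.14 ± 0.074, was not called (adjusted p = 0.234) unless the set was a term of the fit (adjusted p = 0.0314), nor was Selp at -1.32 ± 0.53 (adjusted p = 0.0932), which was called without aPD1 tumor 2. Within the first set no member was called. Over the 27 alternatives, that set included, the log2 fold changes nearest 0 were -0.57 for Itgal, -0.72 for Itgb2 and -0.39 for Itga4. Those of Itgb7, Selplg and Icam1 were -0.69, -0.59 and -0.61.

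Adding aIL2RB lowered 7 members: the same 6 and Selp. Of all genes, 27.4% were called. Itgal was at a lowest, median and highest of 27.8, 40.6 and 76.1 CPM, with a log2 fold change of -1.49 ± 0.21 (adjusted p = 1.01e-06). Itga4 was at 31.4, 40.02 and 53.2 CPM with -1.24 ± 0.20 (adjusted p = 6.51e-06). Selplg was at 15.4, 17.8 and 29.3 CPM with -1.45 ± 0.18 (adjusted p = 1.24e-07). These 3 did not overlap aPD1 tumors, against 4.22% of all genes, in either direction.

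Itgb7 moved furthest among the members, from a median of 21.8 CPM in aPD1 tumors to 4.79 CPM, with a log2 fold change of -1.96 ± 0.42 (adjusted p = 3.57e-04). aIL2RB tumor 9 was high, at 18.4 CPM, and so were its Itgal, Itgb2 and Icam1 levels. Itgb2 fell by 1.26 ± 0.21 on the log2 scale (adjusted p = 9.70e-06), and Icam1 by 1.10 ± 0.18, to a median of 14.9 CPM (adjusted p = 8.97e-06). These 6 calls held under each of the 29 alternatives run for this comparison. Selp, at a median of 0.571 CPM, had a log2 fold change of -1.39 ± 0.50 (adjusted p = 0.0355), and its call was lost in 10 alternatives, among them without aPD1 tumor 3, 4 or 5 and without aIL2RB tumor 3, 5, 6 or 8. Vcam1, at -0.17 ± 0.072, was not called (adjusted p = 0.0651), but was in 7 of 29 alternatives: with the set as a term, in the first set, with only the groups compared, with at least 10 counts in every tumor, and without aIL2RB tumor 5 or 6 or aPD1 tumor 5.

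The double blockade lowered 8 members, all but Sele, again beside 27.4% of all genes. By the SD in CPM, its 11 tumors varied more than those of the other blockades for every member but Sele, a difference that was not tested. Itgal ranged from 20.2 to 93.2 CPM, median 36.3 CPM, and alone did not overlap aPD1 tumors (1.96% of all genes did not), with a log2 fold change of -1.51 ± 0.21 (adjusted p = 1.19e-06). Itgb2 was at a lowest, median and highest of 54.4, 86.3 and 226 CPM (-1.21 ± 0.21, adjusted p = 2.21e-05). Itgb7 was at 0.846, 5.50 and 24.2 CPM, with a log2 fold change of -1.61 ± 0.42 (adjusted p = 0.00296). Double blockade tumor 1 was the highest of its group for 8 of the 9 members, Vcam1 being the exception.

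Icam1 had a median of 14.6 CPM and a log2 fold change of -1.19 ± 0.18 (adjusted p = 3.81e-06), Selplg of 21.4 CPM and -1.30 ± 0.18 (adjusted p = 8.73e-07), and Itga4 of 43.7 CPM and -0.95 ± 0.20 (adjusted p = 2.93e-04). Vcam1 fell by 0.21 ± 0.071 on the log2 scale (adjusted p = 0.0241), from 266 to 231 CPM on average, a call lost in 5 of 29 alternatives: without aPD1 tumor 1 or 3, in the first set, with the replicate block and with scaling to library size only. Selp had a log2 fold change of -1.37 ± 0.51 (adjusted p = 0.0392), a call lost in 16 alternatives, including without aPD1 tumor 3, 4, 5 or 6 and without double blockade tumor 3, 6, 7, 8, 9, 10 or 11. These comparisons share the aPD1 tumors.

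**Figure D2:**
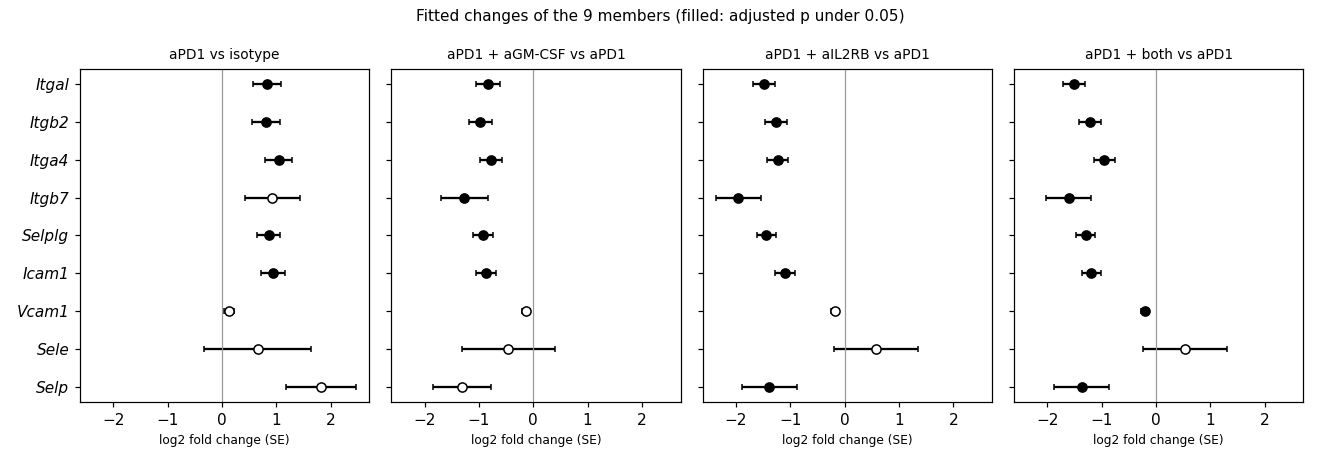
Fitted log2 fold change with its SE (x axis) of the 9 members (y axis) in the 4 comparisons with aPD1 or isotype, with filled points for adjusted p under 0.05. Itgal, Itgb2, Itga4, Selplg and Icam1 are filled to the right with aPD1 and to the left with every blockade, and Vcam1 stays within 0.21 of zero.

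The change of the double blockade against aPD1 differed between the 2 sets, which no other comparison of the members did at the threshold. The difference, second minus first set, was called for 7 members, beside 9.18% of all genes: -3.28 ± 0.69 for Itgb7 (adjusted p = 0.00302), -1.38 ± 0.30 for Selplg (adjusted p = 0.00368), -1.43 ± 0.35 for Itgb2 (adjusted p = 0.00879) and -1.14 ± 0.31 for Icam1 (adjusted p = 0.0164) on the log2 scale, with Itga4, Itgal and Selp as well. In the second set the 5 double blockade tumors had an Itgb7 level of 0.846 to 5.50 CPM and the 3 aPD1 tumors 23.9 to 38.6 CPM. In the first set the 6 double blockade tumors ranged from 4.51 to 24.2 CPM and the 3 aPD1 tumors from 12.5 to 19.6 CPM, which overlapped. The level of 24.2 CPM was that of double blockade tumor 1, and the next highest was 12.9 CPM in double blockade tumor 4. The difference between the sets was not tested without tumor 1. Within the first set 1 of 8 calls, Itgal, was left. The sets were seen in these data and are not a labelled factor. The adjusted p-values of the edgeR test of their difference are therefore not those of a split set beforehand. What sets the sets apart was not tested.

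**Figure D3:**
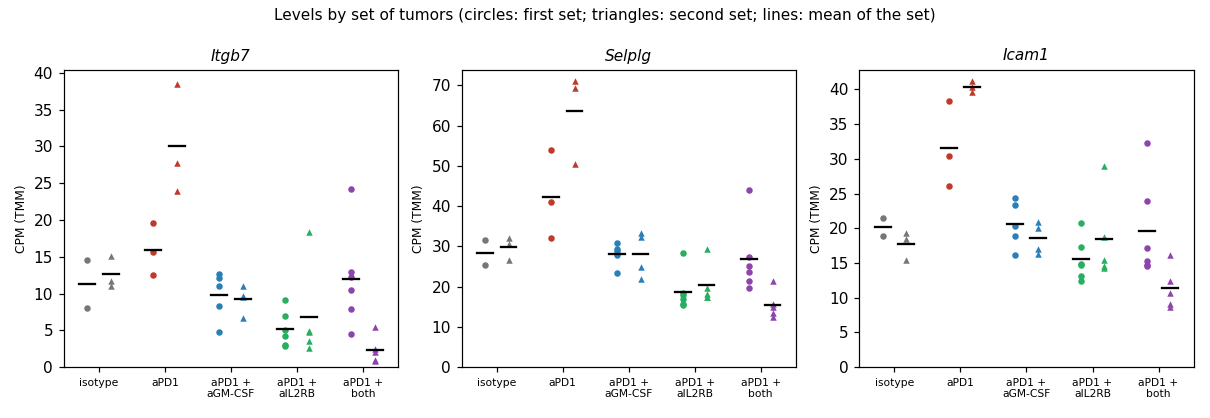
Itgb7, Selplg and Icam1 in CPM (y axis from 0) by group, with circles for first-set and triangles for second-set tumors and lines for set means. The mean of the double blockade tumors is lower in the second set than in the first for all 3 genes, and that of the aPD1 tumors is higher, while single tumors of the 2 sets overlap in the double blockade for all 3 genes and in aPD1 for Selplg.

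Against isotype tumors, few members differed over all tumors. With aGM-CSF none was called, by edgeR or by DESeq2, and none had an unadjusted p under 0.05, as 938 genes did; the percent of genes called was 0.0%. With aIL2RB none was called by either tool, although 3 members had an unadjusted p under 0.05, and 3.2% of genes were called; Itgal was at -0.65 ± 0.22 (adjusted p = 0.0985) and Selplg at -0.59 ± 0.19 (adjusted p = 0.0781). With the double blockade 1 member, Itgal, was called lower, at -0.67 ± 0.22 (adjusted p = 0.0466), beside 10.2% of genes, and DESeq2 called none. The Itgal call was lost in 16 of 28 alternatives, among them the replicate block, only the groups compared, the first set, the muscle covariate, and leaving out isotype tumor 2, 3, 4 or 5 or double blockade tumor 3, 6, 7, 8, 9 or 11, and its log2 fold change ranged from -1.34 to -0.19. Within the second set 6 members were called lower than isotype, with log2 fold changes of -1.34 for Itgal, -1.05 for Itgb2, -2.44 for Itgb7 and -0.94 for Selplg and calls for Itga4 and Icam1, and within the first set none was. Without aIL2RB tumor 9 and double blockade tumor 1 the counts were 4 with aIL2RB and 3 with the double blockade. The shares of all genes called in these refits are not given here, so these counts cannot be set against them. Between aIL2RB and aGM-CSF tumors no member was called (1.52% of genes), 3 had an unadjusted p under 0.05, and DESeq2 called 1, Selplg.

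Whether the effect of 1 blocking antibody changed with the other present was tested as a difference of differences. It was called for 4 members, all positive, beside 8.34% of genes: 1.02 ± 0.28 for Itgb2 (adjusted p = 0.0196), 1.07 ± 0.27 for Itga4 (adjusted p = 0.0121), 1.07 ± 0.24 for Selplg (adjusted p = 0.00581) and 0.77 ± 0.25 for Icam1 (adjusted p = 0.0424). That is, for these 4 the double blockade lay higher than the sum of the 2 single changes on the log2 scale. Without aPD1 tumor 4, 2 were left, within the first set none and within the second set 1. The Icam1 call was near the threshold and was lost in 25 of 47 alternatives, that of Itgb2 in 4, that of Selplg in 2 and that of Itga4 in 1. The largest estimate, 1.62 ± 0.57 for Itgb7, was not called (adjusted p = 0.0707), nor were 1.33 ± 0.70 for Selp (adjusted p = 0.250) and 0.82 ± 0.29 for Itgal (adjusted p = 0.0668). Without aIL2RB tumor 9 and double blockade tumor 1, Itgb7 and Itgal were called as well. A positive difference of differences was not particular to the members. It was also called for 8 of 8 pan-leukocyte markers, 7 of 10 macrophage markers and 11 of 18 genes of integrin activation. Of 9 T cell markers 2 were called higher, and of 7 NK cell and 12 endothelial markers 0.

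Set against Ptprc, the mean of Itga4 moved by less than the SD of isotype tumors, while Itgb2, Selplg, Itgal and Itgb7 lay lower with the double blockade than with aPD1. The log2 difference from Ptprc of Itga4 was -1.74 ± 0.31 in isotype, -1.64 ± 0.21 in aPD1 and -1.56 ± 0.21 in double blockade tumors (mean ± SD). That of Itgb2 was -0.34 ± 0.15, -0.49 ± 0.22 and -0.71 ± 0.08, with -0.64 ± 0.22 under aGM-CSF and -0.49 ± 0.24 under aIL2RB, where it was level with aPD1 tumors, and that of Selplg -2.45 ± 0.17, -2.57 ± 0.19 and -2.81 ± 0.19 in the same groups. Itgal went from -1.24 ± 0.16 in isotype and -1.35 ± 0.13 in aPD1 tumors to -1.89 ± 0.19 in double blockade tumors, and Itgb7 from -3.81 ± 0.32 in aPD1 to -4.84 ± 0.95. Icam1, set against Ptprc after its values were seen, was at -3.09 ± 0.18 in isotype and -3.09 ± 0.25 in aPD1 tumors, at -3.16 ± 0.18 with aGM-CSF, at -2.93 ± 0.27 with aIL2RB and at -3.27 ± 0.24 with the double blockade. Against the mean of the 12 endothelial genes the same gene went from 0.88 ± 0.16 to 1.58 ± 0.23 and then to 0.16 ± 0.48 with the double blockade. That reference itself had a mean log2 CPM of 3.35 in isotype, 3.57 in aPD1 and 3.74 in double blockade tumors, and between double blockade and isotype tumors Icam1 differed by -0.72 against it and by -0.33 in plain log2 CPM. These are descriptions with no test.

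**Figure D4:**
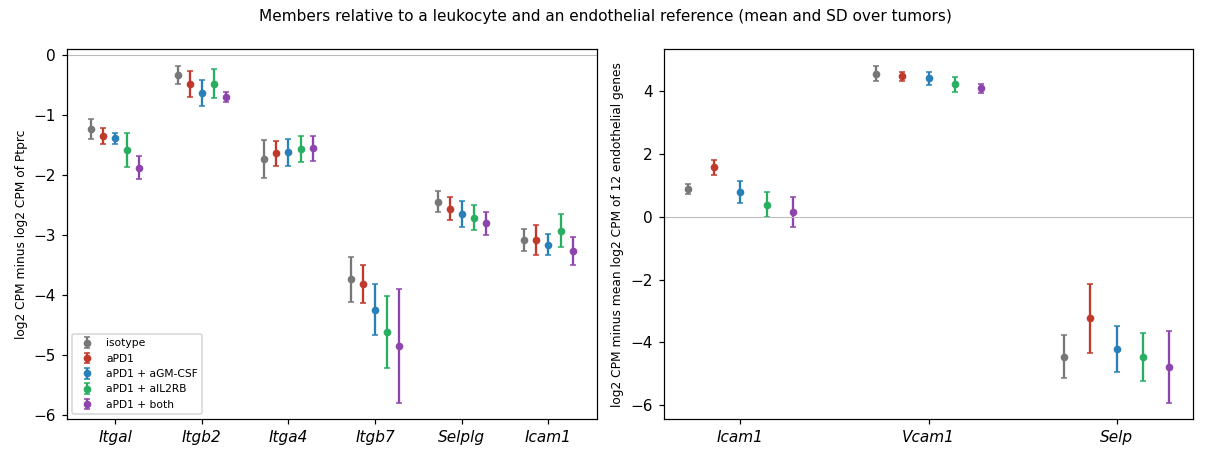
Log2 CPM of members minus that of Ptprc (left) and minus the mean of 12 endothelial genes (right), as mean and SD over the tumors of each group. Against Ptprc the group means of Icam1 lie between -3.27 and -2.93, and against the endothelial reference they lie between 0.16 and 1.58.

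The subunits of an integrin were compared by the log2 ratio of their counts within each tumor, in 8 exact two-sided permutation tests adjusted together. Itgal to Itgb2 stood at a mean ratio of 0.554 ± 0.0672 in aPD1 tumors and at 0.444 ± 0.0555 in double blockade tumors, a log2 difference of -0.32 (exact permutation adjusted p = 0.0213). The other 3 comparisons of this ratio did not pass the threshold, with -0.24 for aIL2RB (exact permutation adjusted p = 0.0572). Itgb7 to Itga4 was 0.230 ± 0.0669 in aPD1 tumors, 0.140 ± 0.114 with aIL2RB and 0.125 ± 0.0722 with the double blockade; its log2 differences of -0.91 and -1.16 both had an exact permutation adjusted p = 0.0572. The ratio of Itgal to Itgb2 with the double blockade was not past the threshold without aPD1 tumor 2 (log2 -0.27) or 6 (-0.29), within either set, or when tumors were paired by replicate number. With aIL2RB, the ratio of Itgal to Itgb2 passed without aIL2RB tumor 11 (log2 -0.28) and that of Itgb7 to Itga4 without aIL2RB tumor 9 (-1.11).

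Scaled to exon length (CPM per kilobase of the annotated exons), Itgb2 and Vcam1 were the most abundant members, at 41.5 and 27.4 in isotype tumors. Itgal followed at 10.3 and Selplg at 6.84, while Itgb7, Icam1 and Itga4 were at 4.36, 4.29 and 3.50. Selp, at 0.0916, and Sele, at 0.0359, were far below. Members lie on GRCm38 (GENCODE annotation, whole gene bodies) as follows: Itgal at chr7:127296260-127335138, Itgb2 at chr10:77530252-77565708, Selplg at chr5:113818536-113832644, Vcam1 at chr3:116109949-116129688, Itga4 at chr2:79255426-79333123, Itgb7 at chr15:102215995-102231944, Icam1 at chr9:21015985-21028817, Sele at chr1:164048234-164057677 and Selp at chr1:164115264-164150026. Itga4, Icam1, Vcam1 and Selp overlap a gene on the opposite strand, so reads from such partners cannot be told apart where strand was not used.

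Of a list of 18 genes of integrin activation, which links receptors to the cytoskeleton, 11 rose with aPD1 and none fell (median log2 fold change 0.59, against -0.0023 over all genes). Among these Dock2, an activator of Rac, rose by 0.88 ± 0.19 (adjusted p = 0.00419) and Fermt3, kindlin-3, by 0.77 ± 0.16 (adjusted p = 0.00297). The same list had 11 lower with aGM-CSF, 15 with aIL2RB and 15 with the double blockade. Skap1, an adaptor that links the T cell receptor to integrins, fell by 3.96 ± 0.57 with aIL2RB (adjusted p = 1.70e-06).

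Of 17 other leukocyte adhesion genes tested, 4 rose with aPD1 and 7, 12 and 8 fell with aGM-CSF, aIL2RB and both, while 1, 0 and 1 rose. Of 16 other endothelial adhesion genes, 2 rose with aPD1, Aoc3 and Pecam1; with aGM-CSF none was called, with aIL2RB 3 rose and 2 fell, and with the double blockade 3 rose. Of 14 genes that build selectin ligands, none was called with aPD1, 1 rose with aGM-CSF, 3 rose and 3 fell with aIL2RB, and 2 rose and 3 fell with the double blockade. Of 15 genes induced by NF-kB, 3 rose with aPD1, Bcl3 and Cxcl10 among them, 1 rose and 5 fell with aGM-CSF, and 6 and 8 fell with aIL2RB and the double blockade. The shares of all genes called, 8.71% with aPD1, 13.5% with aGM-CSF and 27.4% with each of the other blockades, stand beside these counts, and the endothelial list was near or below them. With the double blockade against isotype 6 of the 16 endothelial adhesion genes and 5 of the 12 endothelial markers were higher, beside 10.2% of all genes.

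Markers of cell types moved beside these. With aPD1, 7 of 8 pan-leukocyte and 8 of 10 macrophage markers rose, and none of 9 T cell markers passed the test, at a median log2 fold change of 0.97. All 8 pan-leukocyte markers fell with each of the 3 blockades against aPD1. Of 10 macrophage markers, 8 fell with aGM-CSF and 7 with aIL2RB and with the double blockade. Of 9 T cell markers 2, 8 and 9 fell in the same order, and of 7 NK cell markers 1, 6 and 7. The 5 muscle markers fell with aIL2RB, 5 of 5, and 1 fell with the double blockade. Of 6 pericyte markers, 4 rose with each blockade. Of 8 fibroblast markers 1 rose and 2 fell with aGM-CSF, and 3 rose and 4 fell with aIL2RB. With the double blockade 4 rose and 1 fell. Of 6 neutrophil markers 4, 1 and 3 fell with aGM-CSF, aIL2RB and both, and 1 rose with each. The summed level of the 8 neutrophil genes listed went the other way, from a mean of 220 CPM with aPD1 to 344, 376 and 362 CPM. Of 6 B cell markers 2 rose with aPD1, and 0, 3 and 2 fell with the blockades in that order. Of 4 platelet markers none passed with aPD1, and 2, 1 and 1 fell. The summed T cell level ranged from 32.3 to 57.2 CPM in isotype tumors, wholly below the 68.6 to 129 CPM of aPD1 tumors, and was at 24.8 to 73.4 CPM in aGM-CSF, 4.38 to 33.02 CPM in aIL2RB and 2.26 to 69.6 CPM in double blockade tumors. Against isotype tumors, 5 of 9 T cell and 3 of 7 NK cell markers were lower with aIL2RB, beside 3.2% of all genes. With the double blockade 4 and 3 were lower, beside 10.2% of all genes. The part of all these markers in the changes of the members was not tested.

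Genes most like each member across the 42 tumors, after the mean of each group in each set was subtracted, are a description of shared tumor-to-tumor variation. Itgb2 was closest to Samhd1 (Pearson r = 0.95, Spearman rho = 0.88), Itgal to Fcgr4 (r = 0.93, rho = 0.91), Selplg to Fcer1g (r = 0.94, rho = 0.90), Itgb7 to Ly6a (r = 0.92, rho = 0.91), Icam1 to Hk3 (r = 0.92, rho = 0.89) and Itga4 to Xist (r = 0.86, rho = 0.85), among 12442 genes. Ly6a and Hk3 also were among the 3 closest to both Icam1 and Itgb7. Vcam1 had weaker neighbours, led by Sec24d (r = 0.68, rho = 0.68). With Ptprc it had an r of 0.050, where Icam1 had 0.80 and Itgal 0.91. With the endothelial gene Pecam1, Vcam1 had an r of 0.019, Icam1 0.26 and Itgal 0.39. With the endothelial gene Kdr these values were -0.082, -0.30 and -0.27. All these values share the libraries, their depth and the normalization.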

How the data were processed

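Poly(A) RNA-seq of 42 tumors was quantified by the authors, who aligned reads with Bowtie 1.2.3 to founder-strain transcriptomes (GRCm38) and deposited total expected counts per gene, not normalized, of which 15.2% are not whole. Counts were rounded. Symbols were found for 26629 of 26811 identifiers. With edgeR 4.0.16 in R 4.3.3, genes were kept by filterByExpr (minimum count 10, minimum total 15), normalized by TMM and fitted with all 5 groups in 1 quasi-likelihood model, and p-values were adjusted over all 16932 genes. Log2 CPM used a prior count of 2. Ratios were tested in Python 3.11.15 (scipy 1.17.1) by exact permutation. The fit was tested on simulated data for aPD1 against isotype over 16717 genes. There 93 of 100 genes changed by 1 on the log2 scale and 99 of 100 changed by 1.5 were recovered, with 5 false calls. Changes were planted only in genes with higher counts than Selp and Sele have, so the simulation does not cover these members. Counts were drawn independently, without the 2 sets of tumors. Members, gene lists and sets of tumors were chosen with earlier results of these data known. Named genes were all members, at most 4 called genes per list with the largest change, and the 3 genes most correlated with a member among genes with a mean log2 CPM of at least 1. Alternatives were DESeq2 1.42.0, other scalings and filters, fewer groups, a replicate block, the sets, and each tumor left out; 2 high tumors left out and a muscle covariate were added after seeing the data. The values of a gene in the list of other leukocyte adhesion genes are not reported here.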

Additional observations from a re-analysis of the deposited data

Results flagged for a closer look

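The change of the double blockade against aPD1 differed between the 2 sets of tumors for 7 members, by a test of the difference itself (log2, second minus first set): -1.30 for Itgal, -1.43 for Itgb2, -1.18 for Itga4, -3.28 for Itgb7, -1.38 for Selplg, -1.14 for Icam1 and -3.26 for Selp, with edgeR adjusted p from 0.00302 to 0.0247. The sets follow the replicate numbers and were seen in these data. The effect of 1 blocking antibody differed with the other present for 4 members, at 1.02 for Itgb2, 1.07 for Itga4, 1.07 for Selplg and 0.77 for Icam1 on the log2 scale. The call was lost in 25 of 47 alternatives for Icam1, 4 for Itgb2, 2 for Selplg and 1 for Itga4.

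For Sele, isotype tumor 4 stood far from the others of its group at 0.338 CPM, and so did aPD1 tumor 5 at 0.677 CPM. In 27 combinations of a member and a group of up to 10 tumors, chance would flag about 1 in 20, and these levels are a few counts each.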

How the results depend on the processing

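Of 1558 refits of single members, 1376 kept direction and side of the threshold, 128 lost and 52 gained a call, and 2 changed sign. These refits covered chosen pairs of member and comparison. Left out were, among others, Sele, aGM-CSF against isotype, and Itga4 and Icam1 for the double blockade against isotype. The second-set calls of Itga4 and Icam1 against isotype are therefore outside this tally. The sign changed within the first set for the double blockade against isotype, to 0.039 for Itgb2 and 0.085 for Itgb7. Members called fell within the first set to 0 for aPD1 against isotype, 0 for aGM-CSF against aPD1, 1 for the double blockade against aPD1, 0 for it against isotype and 0 for the interaction, and 1 was called between aIL2RB and aGM-CSF; within the second set the double blockade against isotype had 6 and the interaction 1. Fitting only the groups compared gave 2 for aIL2RB against isotype, 0 for the double blockade against isotype and 2 for aIL2RB against aGM-CSF. For the double blockade against isotype a total of at least 5 counts, DESeq2 and the muscle covariate gave 0, and DESeq2 gave 1 between aIL2RB and aGM-CSF. The muscle covariate gave 3 for aPD1 against isotype. Without aIL2RB tumor 9 and double blockade tumor 1 there were 4, 3 and 2 for aIL2RB against isotype, the double blockade against isotype and aIL2RB against aGM-CSF. The causes were not tested. Shares of all genes called in these refits are not given, so the counts of members cannot be set against them.

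Leaving out 1 tumor gave 3 to 6 members for aPD1 against isotype, 0 to 3 for aIL2RB and 0 to 3 for the double blockade against isotype, 0 to 2 between aIL2RB and aGM-CSF, and 2 to 6 for the interaction. The log2 ratio of Itgal to Itgb2 ranged from -0.0092 to 0.095 for aPD1 against isotype, from -0.28 to -0.19 for aIL2RB and from -0.35 to -0.27 for the double blockade against aPD1; that of Itgb7 to Itga4 ranged from -0.30 to 0.020 for aPD1 against isotype and from -1.11 to -0.79 for aIL2RB against aPD1. Within the second set the ratios for aPD1 against isotype were -0.047 and 0.21. For the double blockade the Itgal to Itgb2 ratio of -0.37 in the first and -0.27 in the second set was not past the threshold, and an exact Wilcoxon test called Itgb7 to Itga4 with aIL2RB (-0.91).

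Same-numbered tumors were not treated as pairs in the main fit. In no comparison did every same-numbered pair correlate above 0.1. The pairs above it were 6 of 9 for aIL2RB against aGM-CSF and 1 of 6 for the double blockade against aPD1. Some same-numbered tumors also lie in different sets, so this rule cannot decide whether replicate numbers pair the tumors. With the replicate block 5, 5, 6 and 6 members were called in the 4 comparisons of aPD1 with isotype and of the blockades with aPD1, 0 for the double blockade against isotype and 2 for the interaction, and the paired Itgal to Itgb2 ratio of -0.32 for the double blockade was not past the threshold. Low counts limit Sele and Selp, and the 2 or 3 isotype and aPD1 tumors per set limit the within-set tests.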
